A study of Drosophila melanogaster with 8 samples.

Results

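The 41 protein-coding genes described here had no read in either control library of an RNA immunoprecipitation experiment and were recovered with the RNA-binding protein Sister-of-Sex-lethal (SSX). They were chosen by measured values: a protein-coding entry in either of the authors' lists of enriched genes, and a raw read count of 0 in both libraries made with green fluorescent protein (GFP). That is 41 of the 956 listed genes and 41 of the 920 listed coding genes; the innexin gene ogre, which also had no GFP read, was left out. All libraries came from transfected SL2 cells, a male hemocyte-like line of Drosophila melanogaster. The cells expressed Sex-lethal (SXL), SSX or GFP with a FLAG-3xHA-tag, and all 3 groups were precipitated with the mouse monoclonal antibody anti-FLAG M2, so the tag and the antibody are shared by the control. There were 2 SXL, 3 SSX and 2 GFP libraries, and 1 input sample was not analysed here. The promoter and the amount of each tagged protein were not given in the sources used here, nor whether each library had its own culture. Every p-value below therefore reflects variation among these libraries only, and that variation may be technical.

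SXL is the female-specific splicing and translation regulator of the fly; it binds uridine-rich stretches of RNA and, in females, directs sex-specific splicing and blocks dosage compensation. SSX is its close paralogue. In an RNA immunoprecipitation, reads from an irrelevant tagged protein such as GFP measure what sticks to the antibody or the beads, so a gene with reads in the SXL or SSX precipitates and none with GFP has no measured background, and the size of its enrichment has a lower bound and no estimate.

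The GFP libraries were shallow, which bears on every value against GFP. Over the 956 listed genes the GFP libraries held 20859 and 27467 reads, the SXL libraries 3266209 and 3604413, and the SSX libraries between 3383720 and 4429899. The size factors implied by the authors' mean normalized counts (the divisors that put libraries on 1 scale) were 0.0886 and 0.120 for GFP, 3.33 and 3.59 for SXL, and 1.87 to 2.15 for SSX. A normalized count is a read count divided by that factor. A total of 3 reads over both GFP libraries, the most that a count of 0 allows at 95% confidence, corresponds to a normalized count of 14.4. The reads that the GFP libraries would have held at each gene's SSX mean ranged from 6.87 to 52.5, with a median of 16.7. At each gene's SXL mean they would have held 0 to 18.2 reads with a median of 0.898, and for 22 of the 41 genes under 1 read. Read counts were not divided by transcript length, so counts of different genes may also reflect their lengths. Rankings and set medians below describe counts and are no comparison of RNA levels between genes. Floors and intervals cover counting error only. Of 11 hemocyte markers only srp, a GATA factor of blood cells, was among the listed genes; it had 89 and 109 GFP reads, and the other 10 were not analysed here. Of markers of other tissues, 2 of 8 for neurons (elav and Vmat), 1 of 4 for muscle (Mef2), 2 of 6 for germline (osk and Phf7), 0 of 1 for glia, 0 of 4 for fat body and 0 of 3 for gut were listed, and none was among the 41 genes.

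Nearly all of the 41 genes carried more reads with SSX than with SXL. The material was bulk precipitate, so RNA recovered from fewer cells and less RNA per cell cannot be told apart. Together they held 7754, 6348 and 7098 reads in the SSX libraries 1, 2 and 3, and 1627 and 1805 in the SXL libraries 2 and 3. Among reads of listed genes that is 0.152% to 0.229% with SSX, and 0.0498% and 0.0501% with SXL. Each gene had between 199 and 1494 reads over the SSX libraries (median 473) and between 0 and 603 over the SXL libraries (median 30). All 41 were in the authors' SSX list, which holds 10.5% of the 9034 genes tested against GFP, and CG42360 alone was also in the SXL list, which holds 2.78% of 7170 genes. These list entries chose the genes and are given as a description. At the looser threshold of an adjusted p of 0.05 in the authors' deposited table, 6 of the 41 (CG42360, CG17724, CG8239, snk, vn and mei-W68) were higher with SXL than with GFP, against 16.4% of all tested genes. The count of 6 is close to that share and says nothing particular to the 41 genes. It is a description too, because the comparison uses the GFP reads that the rule set to 0.

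**Figure D1:**
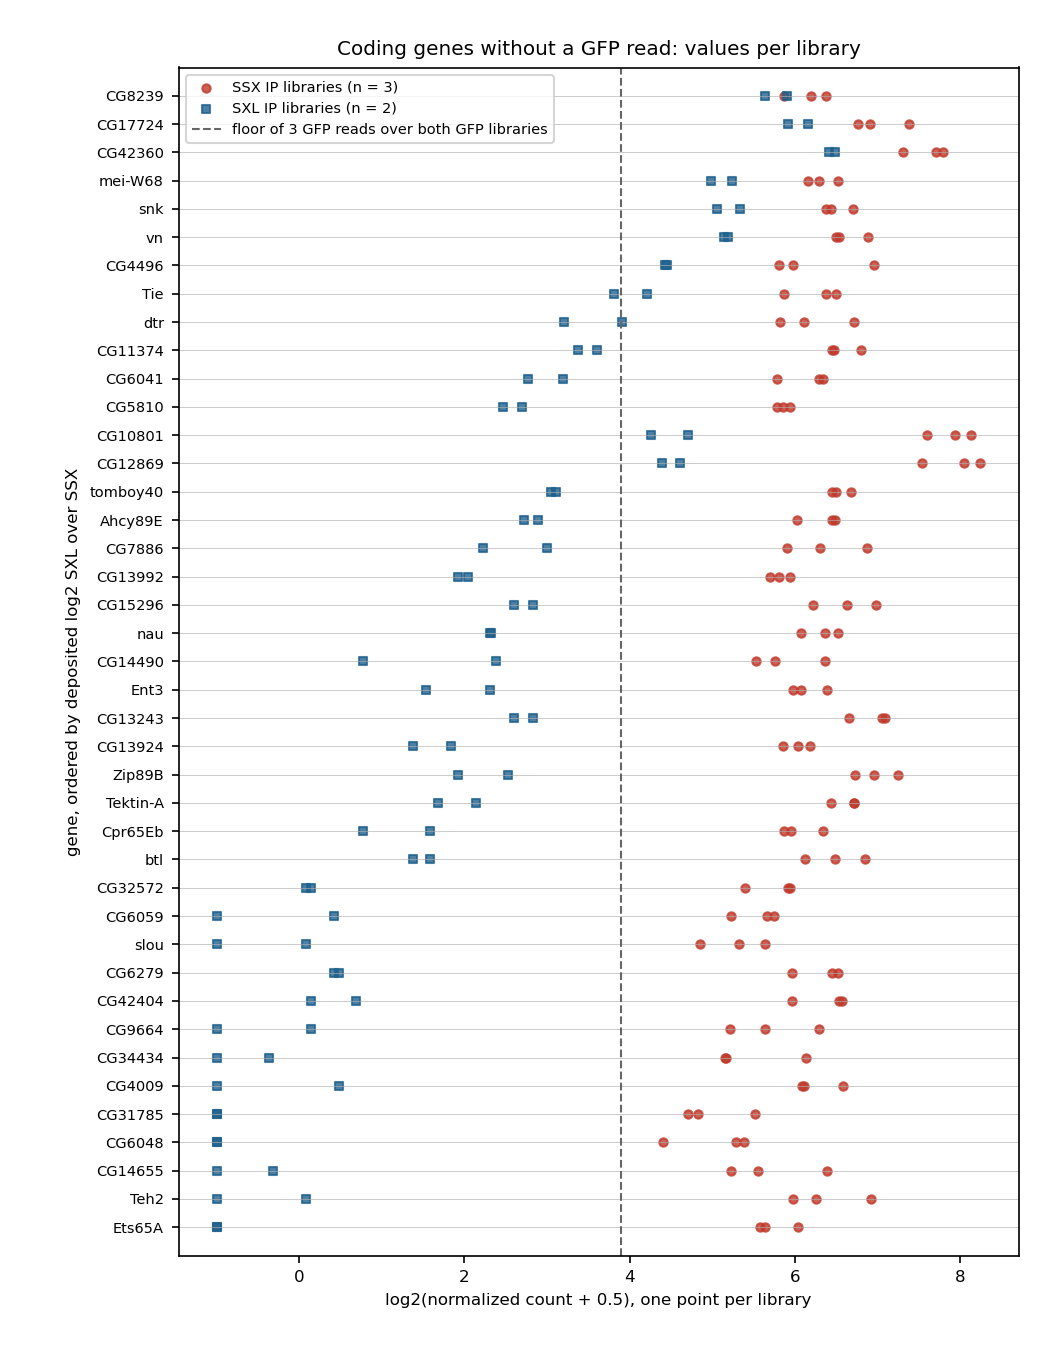
Normalized counts of the 41 genes in each SSX library (circles) and SXL library (squares), on a log2 scale after adding 0.5, with genes ordered by the deposited log2 SXL over SSX; the dashed line marks the floor of 3 GFP reads, a normalized count of 14.4. The SSX points lie to the right of the line for every gene, the SXL means of 31 genes lie at or to the left of it, and CG8239 alone has SSX and SXL points that overlap.

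In the direct comparison of the proteins, 40 of the 41 genes were higher with SSX in the authors' deposited table (adjusted p under 0.05), against 25.9% of the 9500 genes tested, and 0 were higher with SXL, against 11.5%. The deposited log2 fold changes of SXL over SSX ran from -7.61 to -0.38 with a median of -4.12, while the median over all tested genes was -0.23. The value of -7.61 was that of Ets65A, which had 0 SXL reads, so it is a fitted value and no measured ratio. The test of this contrast is not independent of how the genes were chosen, because each was listed for its SSX reads. The listed genes as a whole leaned the same way: the authors' deposited table called 90.5% of them higher with SSX, edgeR called 92.7% of them and 40 of the 41 genes here, and all SSX libraries lay above all SXL libraries in 94.6% of listed genes and in 40 of the 41. The 40 genes are therefore close to the listed background in direction, and so are the counts given below for each class of product, which say nothing particular to a class. Scaled by the listed genes alone, which moved the median log2 SXL over SSX of those genes from -1.24 to 0.02, edgeR put CG8239, CG17724, CG42360 and mei-W68 on the SXL side, while the other 37 stayed on the SSX side. That scaling called 182 listed genes higher with SSX and 185 higher with SXL, beside 886 and 12 with the authors' scaling. Of the 41 genes it called 34 higher with SSX, and the calls for vn, snk, CG4496, CG42360, CG17724 and mei-W68 were lost.

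The ratio is given beside that of the nearest listed genes as a description only, because the GFP reads that separate these sets also chose the genes, and a gene with few reads elsewhere entered the SSX list through its SSX reads. Measured on normalized counts with a pseudocount of 0.5, the median log2 SXL over SSX was -4.14 for the 41 genes without a GFP read, -2.11 for the 25 coding genes with 1 GFP read, -1.44 for the 38 with 2 or 3 reads and -1.24 for all 956 listed genes. The median SSX mean also climbed over these sets, with normalized counts of 80.0, 121.1, 161 and 737, and the median SXL mean was 4.29, 34.9, 60.5 and 323. The part of read depth in the ratio was not tested. Of the 12 listed genes with 5 or fewer SXL reads over both libraries, 11 were among the 41, and the twelfth was noncoding.

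Just outside the rule stood the coding genes with 1 GFP read, of which Vmat, l(1)G0469 and pigeon had the most SSX reads. Vmat, a vesicular monoamine transporter, had 811, 600 and 647 reads with SSX and 307 and 391 with SXL. The gene l(1)G0469 had 406, 583 and 540 reads with SSX and 299 and 378 with SXL. The gene pigeon had 441, 528 and 298 reads with SSX and 256 and 273 with SXL. In each of these 3 genes the SSX libraries stood above the SXL libraries after normalization, as in 94.6% of all listed genes. The log2 SXL over SSX was -1.77 for Vmat, -1.41 for l(1)G0469 and -1.47 for pigeon. At the other limit of the rule, CG8239 was nearest to leaving the SSX list, with a deposited log2 fold change over GFP of 3.67 and an adjusted p of 0.000711, both from the authors' deposited table; the list required an adjusted p under 0.001.

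**Figure D2:**
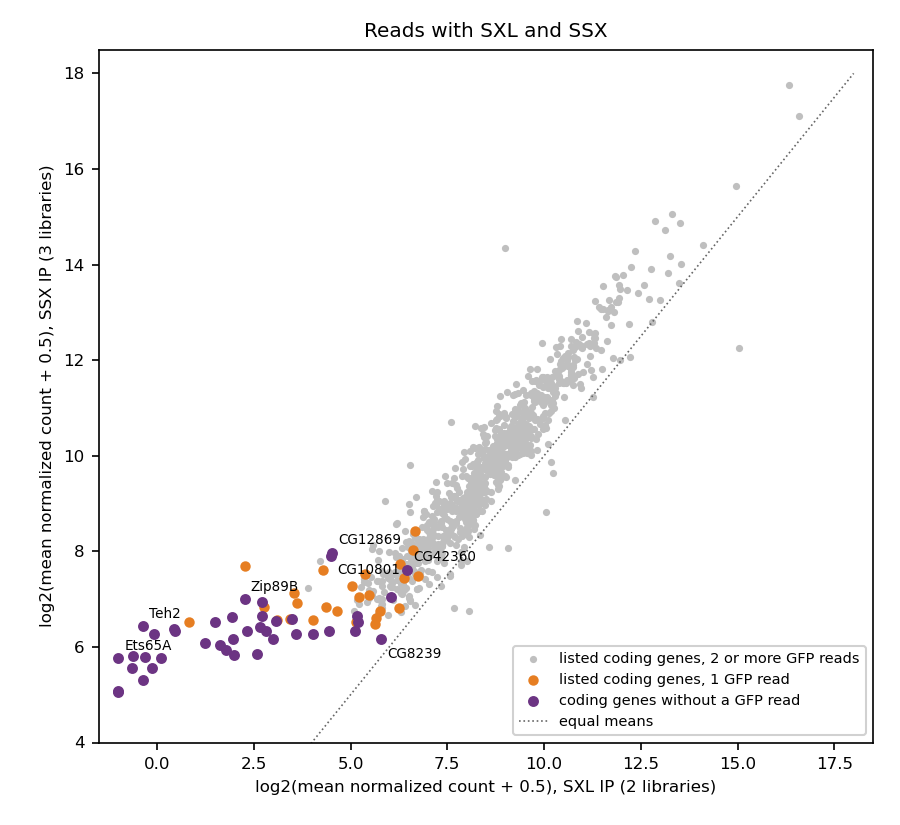
Mean normalized count with SXL (x axis, 2 libraries) against SSX (y axis, 3 libraries), both as log2 after adding 0.5, for the 41 coding genes without a GFP read, the 25 with 1 GFP read and the other listed coding genes; the dotted line marks equal means. The 41 genes have SXL means from 0 to 86.99 and SSX means between 32.9 and 251, and all lie above the dotted line; with TMM scaling over listed genes CG8239, CG17724, CG42360 and mei-W68 change sides.

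The set held 3 genes for receptors and ligands, and the authors' deposited table called all 3 higher with SSX, where 90.5% of listed genes were. Breathless (btl, 3L, 14075772 to 14083229) encodes the fibroblast growth factor receptor that guides branching of the tracheal tubes. It had 192, 135 and 214 reads with SSX and 7 and 9 with SXL, so the groups were far apart. Its normalized count was 91.1 ± 22.5 (SD, n = 3) for SSX and 2.30 ± 0.28 (SD, n = 2) for SXL, and the authors' deposited table gave a log2 SXL over SSX of -5.12 (SE 0.48, adjusted p = 6.5e-24). The gene vein (vn, 3L) encodes a neuregulin-like ligand of the epidermal growth factor receptor and had 198, 174 and 220 reads with SSX and 116 and 130 with SXL. Its groups did not overlap after normalization but were much closer than those of btl, with -1.48 (SE 0.29) in the authors' deposited table. The remaining gene, Tie (3L), encodes a receptor tyrosine kinase and had 193, 113 and 155 reads with SSX and 45 and 65 with SXL, a deposited log2 SXL over SSX of -2.24 (SE 0.37).

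Transcription factors and other nucleic acid-binding proteins made up 5 of the 41 genes, all 5 higher with SSX beside 90.5% of listed genes, and 3 of them had at most 3 reads with SXL. Ets65A (3L, 6097617 to 6123913), which encodes a factor with an ETS DNA-binding domain, had 140, 92 and 92 reads with SSX and 0 in both SXL libraries. With a floor of 3 SXL reads over both libraries, its mean normalized count of 53.9 ± 9.80 (SD, n = 3) with SSX was at least 124-fold higher than with SXL. The homeodomain gene slouch (slou, 3R), which marks founder cells of particular body wall muscles, had 106, 55 and 74 reads with SSX and 0 and 2 with SXL. The ratio of SSX to SXL for slou was 137 (95% counting interval 37.4 to 1134). Its edgeR log2 SXL over SSX of -6.79 became -5.95 without SXL library 2 and -8.96 without library 3, which left a library with 0 reads. The gene nautilus (nau, 3R), the fly relative of the vertebrate MyoD factors of muscle, had 196, 130 and 153 reads with SSX and 15 and 16 with SXL. Its normalized count was 80.0 ± 12.3 (SD, n = 3) for SSX and 4.48 ± 0.04 (SD, n = 2) with SXL. CG14655 (3R), annotated with nucleic acid and metal ion binding, had 179, 90 and 69 reads with SSX against 1 and 0 with SXL, a ratio of 393 (95% counting interval 70.0 to 15559). Its edgeR log2 value of -8.04 became -7.20 without SXL library 3 and -9.50 without library 2, where only a library with 0 reads was left. Its SSX libraries differed by a factor of 2.26 after normalization, the widest spread of the 41 genes. CG4496 (2L), with the same annotation, had 134, 108 and 231 reads with SSX and 70 and 77 with SXL, and its deposited log2 SXL over SSX of -1.88 (SE 0.44) was the closest to 0 of the 5.

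Transporters, channel subunits and a receptor-like membrane protein made up 6 genes, all higher with SSX (listed genes 90.5%). Their median deposited log2 SXL over SSX was -5.66, and class medians ran from -6.12 (transcription factors) to -2.24 (receptors and ligands). Of the 6 genes, 3 had at most 3 SXL reads, so this median rests partly on values fitted to few reads. Zip89B (3R, 16305758 to 16308700) encodes a zinc transporter of the ZIP family and had 325, 240 and 198 reads with SSX and 11 and 19 with SXL. Its SSX to SXL ratio of reads was 29.6 (95% counting interval 20.5 to 44.1), and every SSX library stood above both SXL libraries. Its SXL mean of 4.29 ± 1.40 (SD, n = 2) lay under the GFP floor of 14.4, so a difference between SXL and GFP was not detectable at this depth. No other of the 10 ZIP transporters looked for was in the lists, and they were not analysed here. Teh2 (3L, 4178980 to 4188023) encodes an accessory subunit of voltage-gated sodium channels and had 134, 147 and 226 reads with SSX and 0 and 2 with SXL. The Teh2 ratio was 295 (95% counting interval 81.1 to 2439), and the deposited log2 SXL over SSX was -7.21 (SE 0.76, adjusted p = 4e-19). The edgeR value for Teh2, -7.92, became -7.09 without SXL library 2 and -10.09 without library 3, which held both of its SXL reads.

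The other transporters differed in how many SXL reads they kept. The gene tomboy40 (2R), a paralogue of the pore through which proteins enter mitochondria, had 194, 198 and 162 reads with SSX and 27 and 28 with SXL. Replicates of tomboy40 were close, with normalized counts of 93.0 ± 7.99 (SD, n = 3) and 7.95 ± 0.23 (SD, n = 2). Ent3 (3L), an equilibrative nucleoside transporter, had 179, 130 and 117 reads with SSX and 8 and 16 with SXL. CG9664 (2L), annotated as an ATP-binding cassette transporter, had 168, 71 and 92 reads with SSX and 2 and 0 with SXL. CG31785 (2L), which RefSeq names Grl36b, a gustatory receptor-like gene, had 97, 54 and 48 reads with SSX, the fewest of the set, and 0 with SXL. Its SSX mean of 32.9 ± 10.7 (SD, n = 3) was at least 75.9-fold higher than the SXL floor and at least 2.29-fold higher than the GFP floor.

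Enzymes were the largest class with a known product, with 9 genes, of which 8 were higher with SSX (listed genes 90.5%). CG12869 (2R, 14591203 to 14595617), annotated as a carboxylic ester hydrolase, had the most SSX reads of all 41, with 567, 360 and 567, and 80 and 74 with SXL. Its normalized count was 251 ± 60.0 (SD, n = 3) for SSX and 22.3 ± 2.43 (SD, n = 2) with SXL, and the SXL mean was at least 1.55-fold higher than the GFP floor. The deposited log2 SXL over SSX was -3.45 (SE 0.31, adjusted p = 1.4e-26). Of 23 carboxylesterase-like genes looked for, no other was listed. Only alpha-Est4 could be matched by identifier to the authors' deposited tables, where it had a mean normalized count of 0.346 and no adjusted p. The rest were not looked up in those tables and were not analysed here.

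CG8239 was the exception among the 41. It encodes diphosphomevalonate decarboxylase, an enzyme of isoprenoid synthesis that RefSeq names Mvd, and lies on X (15749166 to 15751737). It had 124, 141 and 154 reads with SSX and 164 and 214 with SXL. After normalization the counts were 57.7, 72.6 and 82.4 with SSX and 49.2 and 59.5 with SXL, so the groups overlapped. The authors' deposited table gave a log2 SXL over SSX of -0.38 (SE 0.32, adjusted p = 0.356). With TMM scaling over the listed genes alone, edgeR gave 0.88 for this gene (adjusted p = 0.017), so its direction depends on the scaling.

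The enzyme genes mei-W68 and snk also kept many reads with SXL. The gene mei-W68 (2R), the fly Spo11 relative that cuts DNA to start meiotic recombination, had 168, 177 and 133 reads with SSX and 104 and 134 with SXL. Its deposited log2 SXL over SSX was -1.21 (SE 0.31), and with TMM over the listed genes edgeR gave 0.01. The gene snake (snk, 3R), a serine protease in the cascade that sets the dorsal-ventral axis of the embryo, had 185, 201 and 155 reads with SSX and 133 and 118 with SXL. Both had an SXL mean above the GFP floor, at least 2.39-fold for mei-W68 and 2.54-fold for snk.

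A further 3 enzymes differed in their SXL reads. CG4009 (3R), annotated as a heme peroxidase, had 205, 133 and 126 reads with SSX and 3 and 0 with SXL, a ratio of 180 (95% counting interval 61.1 to 875). Without SXL library 3 the edgeR log2 value of CG4009 went from -7.27 to -6.30, and without library 2, which held all of its SXL reads, to -9.97. CG6279 (3L), annotated as an oxidoreductase, had 197, 120 and 163 reads with SSX and 3 in each SXL library. RefSeq has 2 symbols matched to CG6279 by name, CG46439 and Iyd, and at least 1 of them has exactly its span. Neither was counted as an overlapping gene. Ahcy89E (3R), an adenosylhomocysteinase-like gene that RefSeq names AhcyL2, had 191, 169 and 121 reads with SSX and 23 and 22 with SXL.

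Both remaining enzymes were annotated as serine proteases and are neighbours on X, 2356 bases apart on the same strand. CG6041 had 167, 157 and 102 reads with SSX and 21 and 31 with SXL, a ratio of 9.52 (95% counting interval 7.13 to 12.95). CG6048 had 83, 40 and 77 reads with SSX and 0 in both SXL libraries, at least 77.3-fold higher than the SXL floor. The difference between these neighbours was not tested.

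Genes for the cytoskeleton, cilia and cuticle numbered 4, all higher with SSX (listed genes 90.5%). Tektin-A (2L), a microtubule protein of cilia and flagella, had 225, 168 and 196 reads with SSX and 9 and 14 with SXL. It begins 15 bases after CG13243 on the same strand, a gene annotated only with pain perception, which had 291, 195 and 247 reads with SSX and 22 and 20 with SXL. The pair had similar deposited log2 values of SXL over SSX, -4.78 (SE 0.41) for Tektin-A and -4.26 (SE 0.36) for CG13243, and reads that cross such a short gap can be counted for either gene. The gene dtr (2L, defective transmitter release), annotated with the axoneme and with cilium assembly, had 148, 109 and 196 reads with SSX and 29 and 52 with SXL. CG7886 (3R), annotated with the centrosome, had 250, 115 and 147 reads with SSX and 25 and 15 with SXL. Cpr65Eb (3L), a cuticle protein, had 173, 113 and 115 reads with SSX and 4 and 9 with SXL.

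A further 2 genes had only a binding or behaviour annotation beside CG13243. CG11374 (2L), annotated with galactoside binding, had 187, 215 and 166 reads with SSX and 33 and 42 with SXL. CG32572 (X), annotated with mushroom body and wing development, had 131, 81 and 112 reads with SSX and 2 in each SXL library. All 3 genes of this class were higher with SSX in the authors' deposited table, beside 90.5% of listed genes.

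For 11 genes no product was known here, and all 11 were higher with SSX in the authors' deposited table, beside 90.5% of listed genes. CG42360 (2R, 24607267 to 24610847), the one gene in both lists, had the most SXL reads of the set, 282 and 321, and 339, 430 and 391 with SSX. Its normalized count was 87.0 ± 3.26 (SD, n = 2) with SXL, at least 6.06-fold higher than the GFP floor, and 196 ± 33.7 (SD, n = 3) with SSX, at least 13.7-fold higher. Its deposited log2 SXL over SSX was -1.17 (SE 0.26, adjusted p = 4e-05), and edgeR gave 0.09 with TMM over the listed genes.

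CG17724 (2R) came next by SXL reads, with 237 and 216, and 233, 324 and 224 with SSX. Its deposited log2 SXL over SSX was -0.998 (SE 0.30, adjusted p = 0.004), and edgeR gave 0.25 with TMM and 0.01 with totals of the listed genes. In the authors' deposited table CG17724 passed the fold threshold of the SXL list, and its adjusted p of 0.00245 kept it out.

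CG10801 (X, 3460592 to 3462500) had 417, 478 and 523 reads with SSX and 85 and 67 with SXL. Its normalized count was 240 ± 43.1 (SD, n = 3) for SSX and 22.1 ± 4.87 (SD, n = 2) with SXL, and its SXL mean was at least 1.54-fold higher than the GFP floor. CG10801 and CG12869 had SSX to SXL ratios of 10.8 (95% counting interval 9.16 to 12.9) and 11.3 (95% counting interval 9.54 to 13.4), and the intervals overlapped. CG15296 (X), at 750 bases the shortest of the 41 genes, had 159, 191 and 235 reads with SSX and 22 and 20 with SXL.

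The other 7 uncharacterised genes had fewer reads. CG42404 (3R) had 203, 120 and 172 reads with SSX and 2 and 4 with SXL, CG6059 (3R) had 108, 72 and 100 against 0 and 3, and CG34434 (X) had 76, 68 and 131 against 0 and 1. Each of these 3 had 6 or fewer reads over both SXL libraries. CG13924 (3L) had 123, 127 and 135 reads with SSX and 7 and 11 with SXL, and CG14490 (2R) had 115, 89 and 153 against 4 and 17. CG5810 (3R) had 123, 118 and 102 reads with SSX and 20 and 18 with SXL, and CG13992 (2L) had 131, 100 and 104 against 11 and 13. CG5810 had the closest SSX replicates of the 41 genes, with a normalized count of 57.5 ± 3.11 (SD, n = 3).

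**Figure D3:**
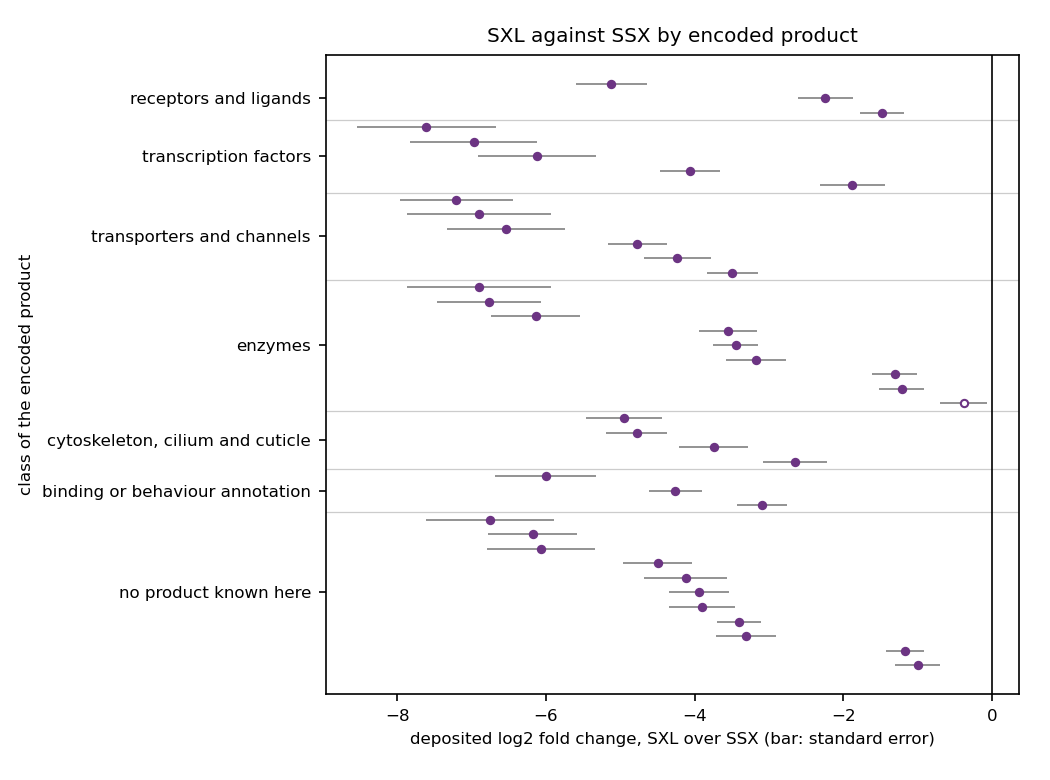
Deposited log2 fold change of SXL over SSX (x axis, bars are the authors' standard errors) for each of the 41 genes, grouped by what the gene encodes; the open circle did not pass an adjusted p of 0.05. Every class spans a wide range, for example -7.61 to -1.88 for transcription factors, and the only open circle is CG8239. The value of -7.61 is that of Ets65A, which had 0 SXL reads, so it is a fitted value and no measured ratio. With TMM scaling over listed genes CG8239, CG17724, CG42360 and mei-W68 change sign.

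By SXL reads the 41 genes formed a continuous range with 10 genes at 3 or fewer reads over both libraries. These were Ets65A, CG6048 and CG31785 with 0, CG14655 and CG34434 with 1, Teh2, CG9664 and slou with 2, and CG4009 and CG6059 with 3. CG32572 followed with 4. At the other end, 10 genes had an SXL mean above the GFP floor, by at least 1.10-fold (Tie) to 6.06-fold (CG42360): CG42360, CG17724, CG8239, snk, vn, mei-W68, CG12869, CG10801, CG4496 and Tie. The other 31 had an SXL mean at or under the floor, so for them the GFP libraries cannot say whether SXL recovered more than background. Against GFP, the SSX means were at least 2.29-fold (CG31785) to 17.5-fold (CG12869) above the floor, with a median of 5.58. Scaled by the totals of the listed genes, which are far smaller in the GFP libraries, that median was 0.649, under 1 and so no bound.

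The deposited fold changes against GFP need care for these genes. The SSX mean divided by the deposited SSX over GFP fold change gives the GFP level that the value implies, and this ran from a normalized count of 1.59 to 6.77 although no GFP read was counted. The deposited log2 fold changes of SSX over GFP were 3.67 to 5.41, with standard errors from 0.93 to 1.12 in the authors' deposited table. In the SXL comparison the authors' deposited table gave a log2 fold change below 0 for 15 genes that had SXL reads and no GFP read, down to -2.26 for CG14655. For the 3 genes with no read on either side it gave 0. These values are therefore fitted values of the authors' analysis. They are not bounds, and for genes without a GFP read their size is not a measured enrichment.

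The SSX libraries agreed to within a factor of 1.11 to 2.26 for a single gene, and the coefficient of variation had a median of 20.0% (range 5.40% to 46.5%). The highest normalized count fell in SSX library 1 for 18 genes, in library 2 for 8 and in library 3 for 15. The factor was above 2 for CG14655, CG4496, CG9664 and CG34434. CG14655 and CG9664 were highest in library 1, CG4496 and CG34434 in library 3. For the 40 genes called with edgeR, the call held without any 1 SSX library, where 857 to 906 of the 956 listed genes were called higher with SSX. That is close to the listed background. Fits without 1 SXL library leave a single SXL library, so only their fold changes are given. The fitted fold moved by over 1.5 times without 1 SXL library in 9 genes, all with few SXL reads: CG14490, CG14655, CG34434, CG4009, CG6059, CG9664, Cpr65Eb, Teh2 and slou. For CG14490, whose SXL libraries held 4 and 17 reads, the edgeR log2 value of -4.29 became -3.65 without library 2 and -5.56 without library 3. For Cpr65Eb it went from -5.11 to -5.71 without SXL library 3. CG9664 went from -7.27 to -6.34 without library 3 and -9.48 without library 2. CG34434 went from -7.79 to -7.04 without library 2 and -9.21 without library 3. CG6059 went from -6.56 to -5.69 without library 2 and -9.22 without library 3. Values fitted to a lone library with 0 reads depend on the prior count and are no bounds.

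The 41 genes lay on all major chromosome arms, with 7 on X, 8 on 2L, 6 on 2R, 9 on 3L, 11 on 3R and 0 on chromosome 4. The X share was 17.1% (exact 95% interval 7.15 to 32.1), beside 33.6% of all 920 listed coding genes and 15.7% of coding genes in the RefSeq annotation; the difference was not tested. The median span of the 41 genes was 2943 bases (750 to 32327), and 29 of them spanned under 5000 bases. The median was 3280 bases for coding genes with 2 or 3 GFP reads, 5645 for those with 1 read and 8156.5 for all 878 listed coding genes with GFP reads, and these differences were not tested. Within the set, Spearman's rho of span was 0.11 with the SSX mean and 0.08 with the SXL mean over 41 genes, which share libraries and are not independent.

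**Figure D4:**
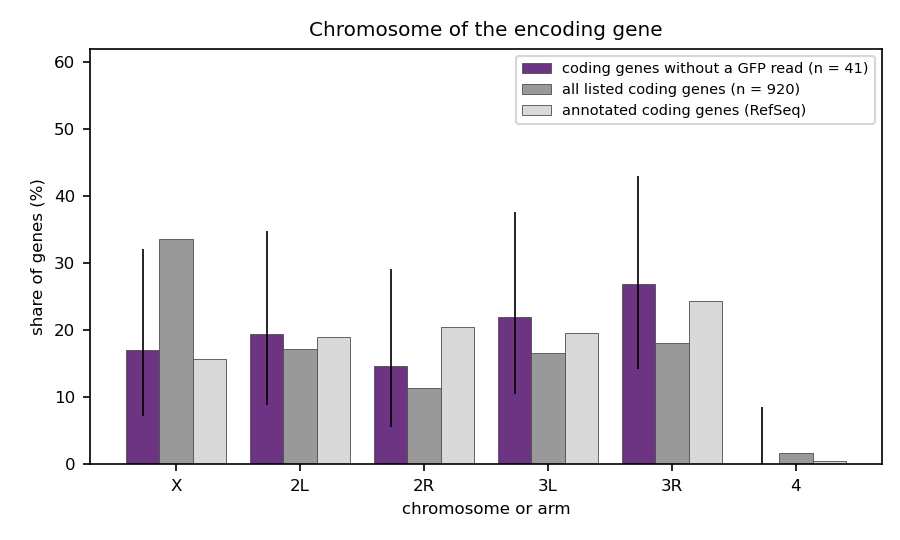
Share of genes in percent (y axis) on each chromosome or arm for the 41 coding genes without a GFP read, with exact 95% binomial intervals, all 920 listed coding genes and all annotated coding genes. The X share of the 41 genes is 17.1%, between the 15.7% of annotated and the 33.6% of listed coding genes, and no gene of the set lies on chromosome 4.

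Overlap with other genes limits some of these counts. In RefSeq, 21 of the 41 spans overlap another annotated gene and 20 overlap a coding gene. In 4 cases the other gene was itself listed: par-1 with mei-W68, Kdm4B with CG17724, spri with CG15296 and CG32756 with CG6041. Whether reads were counted by strand was not given in the sources used here, so reads of the partner cannot be told apart in these genes. CG12869 overlaps Polr1A, and CG10801 overlaps CG16781 and a long noncoding RNA gene, none of them listed, while the span of Zip89B overlaps no other gene. Among the 20 genes whose span overlaps no other, all 20 were higher with SSX in the authors' deposited table, beside 90.5% of listed genes. That is close to the listed background, so the part of overlap in these counts was not tested. The 20 include CG6279, whose 2 RefSeq symbols were not counted as overlaps.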

How the data were processed

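RNA from anti-FLAG precipitates was sequenced after ribosomal RNA depletion, with a stranded low-input kit, per the labels' protocols. Trimmomatic, TopHat2, featureCounts, DESeq, DESeq2 and the build BDGP6 are named in the submitters' processing notes, without versions or roles. Per the file headers, the authors deposited raw read counts per library for listed genes, a mean normalized signal, log2 fold changes with standard errors, and p-values with adjusted p-values. Size factors were solved by least squares from counts and mean normalized counts; 14 further per-library columns were not used. Columns could not be tied to single samples, so libraries carry their column number.

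Calls come from the authors' deposited tables (adjusted p under 0.05). As a check, edgeR 4.0.16 (quasi-likelihood, R 4.3.3, Benjamini-Hochberg over 956 listed genes) used the same size factors; it was tested on simulated counts. DESeq2 1.42.0 was an alternative run here. The listed genes had been selected on enrichment. Other steps used Python 3.11.15, pandas 2.3.3, numpy 2.4.6, scipy 1.17.1 and matplotlib 3.10.9. Bounds use a floor of 3 reads over a group's libraries; ratios are total reads over total size factors with exact 95% intervals. Replicate pairs differed beyond sampling noise (chi-square per degree of freedom 1.27 to 3.78), so none was counted as a duplicate. All 41 spans match RefSeq (Release 6) exactly, 37 under the same symbol. The genes and lists were chosen with earlier results of these data known. Reads were given in every library for all 41 genes. Products come from the lists' names and annotation terms or from RefSeq; no sequence was used here.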

Additional observations from a re-analysis of the deposited data

How the results depend on the processing

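The count of 40 of 41 genes higher with SSX than with SXL stayed at 40 with DESeq2 and with a filter on low counts. It also stayed at 40 with SXL and SSX libraries alone and without any 1 SSX library. With column number as a replicate block (libraries 2 and 3 of each group) the count was also 40, as in the same libraries without the block. This stability is not independent of how the genes were chosen, because each was listed for its SSX reads. Of all 956 listed genes, 879 were called higher with SSX by DESeq2 and 886 with the filter. With SXL and SSX libraries alone 880 were called, and 857 to 906 without 1 SSX library. Among genes whose span overlaps no other, an alternative added after seeing the data, all 20 were called, beside 92.7% of listed genes. The block changed none of the 41 calls; over all listed genes, 910 were higher with SSX with it and 906 without it in the same libraries. Same-numbered SXL and SSX libraries had deviations that correlated at 0.008 and 0.20, and the number is only a column label. With TMM or totals over the listed genes, edgeR called 34 of the 41 higher with SSX in each case, and 182 or 297 of all listed genes in place of 886. TMM turned the sign for 4 genes, to 0.88 (CG8239), 0.25 (CG17724), 0.089 (CG42360) and 0.010 (mei-W68); totals turned it for CG8239 (0.64) and CG17724 (0.013). The median log2 SXL over SSX of -4.14 became -2.93 with TMM, -3.11 with totals and -3.17 with a pseudocount of 5. The median lower bound over the GFP floor, 5.58 for SSX over 41 genes and 2.43 for SXL over only the 10 genes above that floor, fell to 2.72 and 1.19 with 3 reads per GFP library; with totals it was 0.649 and 0.566, below 1 and so no bound. Without 1 SXL library the SXL bound was 2.30 to 2.40. Depth of the GFP libraries limits every fold against GFP.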

Other observations

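The noncoding genes without a GFP read did not all follow the coding ones. CR43701 (3L), a noncoding RNA gene of 93 bases, was listed for SXL and not for SSX, with 664 and 191 reads in the SXL precipitates against 109, 46 and 22 with SSX. Its log2 SXL over SSX from the authors' deposited table was 1.96 (SE 0.63, adjusted p = 0.00697). Its SXL libraries differed widely, with a normalized count of 126 ± 103 (SD, n = 2). CR44566 (3L) had 0 SXL reads and 85, 59 and 73 SSX reads, as few with SXL as Ets65A. CR45623 (X) had 52 and 84 reads with SXL and 116, 176 and 231 with SSX.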
